A study of Homo sapiens with 3 samples.

Results

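The melanocyte-like cells of 2 droplet RNA libraries of human pluripotent stem cells under induction to melanocytes were compared, day 32 (D32) against day 23 (D23). Cells were chosen by measured marker levels: a cell was taken as melanocyte-like where UMIs (counted RNA molecules) of the pigment cell genes PMEL, MLANA, DCT and TYRP1 together made up at least 10 of every 10000 UMIs of the cell. These were 2490 of 3795 kept cells in D23 (65.6%, 95% exact binomial interval 64.1 to 67.1%) and 5618 of 6023 in D32 (93.3%, 92.6 to 93.9%), or 8108 of the 15629 kept cells of the series. The threshold lay in a thin stretch of D32, where 13 kept cells had 8 to 10 marker UMIs per 10000 and 9 had 10 to 12, and in a fuller one of D23, with 93 and 103 cells. The remaining 1305 cells of D23 and 405 of D32 served as a comparison within each library.

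Both groups followed the same induction protocol. Embryoid bodies were grown in medium with Wnt3a-conditioned medium, SCF, endothelin-3, bFGF, cholera toxin, dexamethasone and a phorbol ester, then plated on fibronectin. Passaging followed in medium with fetal bovine serum and without the phorbol ester, and the cells were frozen before the libraries were made. The labels name no genetic change or added treatment that separated the groups. Which of these steps each group had passed is not given in the sources used here. A difference in medium or plating therefore cannot be told apart from day. The labels name the starting cells both as induced pluripotent stem cells and as H9, an embryonic stem cell line, and the study's methods use both kinds. A further library, day 44 (D44), is given beside the others for its levels and for ratios of D44 over D32. It shared its induction and its sequencing batch with D32, whereas D23 had its own of each, so that day, induction and batch cannot be told apart. There was 1 library a day and cells are not replicates: no difference has a replicate check, no p-value is given, and intervals cover counting error only.

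Kept cells had medians of 12574 UMIs in D23 and 36375 in D32, and 4.00% and 4.98% of UMIs came from mitochondrial genes. Every melanocyte-like cell was therefore thinned to 5000 UMIs at random, which left out 74 shallower cells of D23 and none of D32. The summed UMIs of 2416 and 5618 cells were scaled to UMIs per 1000000 UMIs (CPM). The largest number of barcodes shared by a pair of libraries was 28. The marker check of the label used genes outside the rule. MITF was at 341 CPM in D23 and 340 in D32 melanocyte-like cells, against 36.1 and 20.2 CPM in the cells below the threshold, and GPR143 was at 331 and 614 against 21.4 and 14.3 CPM. SOX10 was at 121 and 91.3 CPM against 14.5 and 1.98 CPM. Of the marker lists of other cell types, pluripotency genes summed to 95.3 and 58.3 CPM, of which DPPA4 made 65.6 and 38.1, endothelial and blood genes to 54.4 and 45.6 CPM, of which KDR made 38.9 and 30.9, and muscle and heart genes to 9.69 and 2.99 CPM. NANOG had no UMI in either library, which allows up to 0.248 CPM in D23 and 0.107 CPM in D32, and POU5F1 was at 0.331 and 0.0356 CPM.

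Melanocytes descend from the neural crest, a transient cell population of the embryo that leaves the neural tube and also gives rise to glia, peripheral neurons and facial connective tissue. The transcription factor MITF, working with SOX10 and PAX3, turns on the genes of pigment synthesis. Pigment is made in melanosomes, organelles related to lysosomes, on fibrils of the PMEL protein, by tyrosinase (TYR), TYRP1 and dopachrome tautomerase (DCT), and is later moved to the cell's edge by a RAB27A, melanophilin and myosin Va complex.

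The 4 genes that chose the cells are described here without further reading. The marker sum had a median of 29.4 UMIs per 10000 in D23 (10th to 90th percentile 14.5 to 62.8) and 87.3 in D32 (42.3 to 149). D23 cells lay mostly between 20 and 40, with 1111 cells or 46.0%, and D32 cells mostly between 80 and 160, with 2808 cells or 50.0%. In D23, 119 cells (4.93%) reached 80 to 160, so that the distributions overlapped. PMEL was at 1834 CPM in D23 (95% exact Poisson interval 1810 to 1859) and 5000 in D32 (4974 to 5026). MLANA was at 573 and 1519 CPM, DCT at 937 and 1434, and TYRP1 at 213 and 1324. The make-up of the sum also differed. DCT made up 26.3% of it in D23 and 15.5% in D32, and TYRP1 5.99% and 14.3%, while PMEL (51.6% and 53.9%) and MLANA (16.1% and 16.4%) kept close shares.

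**Figure D1:**
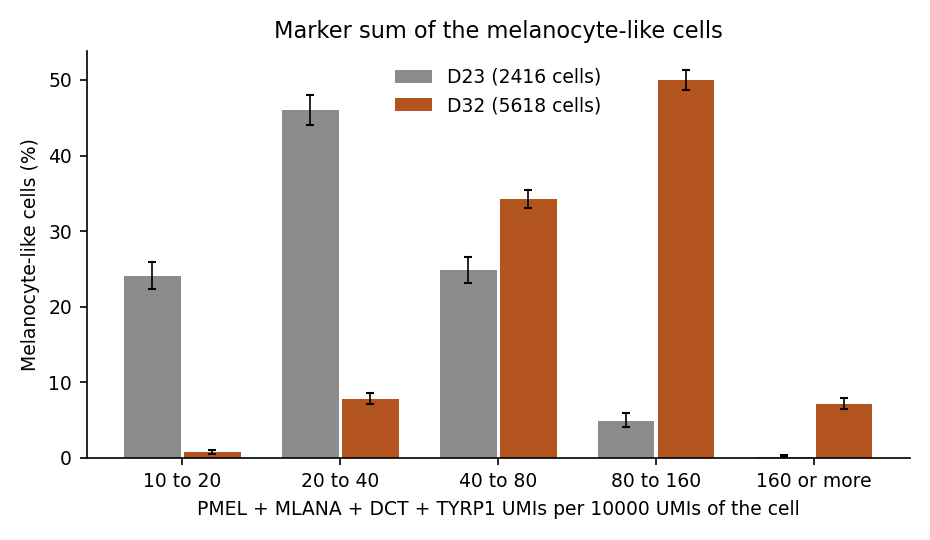
Percentage of melanocyte-like cells (vertical axis) in 5 bands of the summed PMEL, MLANA, DCT and TYRP1 UMIs per 10000 UMIs of the cell (horizontal axis), for D23 and D32 after thinning, with 95% exact binomial intervals as error bars. D23 peaks at 20 to 40 with 46.0% of its cells and D32 at 80 to 160 with 50.0%.

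Because D32 cells carried more of the markers, ratios were also taken among cells with 40 to 80 marker UMIs per 10000, of which D23 had 599 and D32 1925. This is called the matched band below, where a gene was again tested at 10 CPM in either library. Its value is given for named genes of the gene lists, outside the rule, that were called over all cells and not there. Ratios are log2 of D32 over D23 after adding 1 CPM to each, which understates changes of low genes. Of 8769 genes with at least 10 CPM in either library, 312 (3.56%) were at least 2-fold higher in D32 and 586 (6.68%) at least 2-fold lower, with a median log2 ratio of -0.06 over all of them. Only genes past 2-fold are called higher or lower in what follows. A gene far under 10 CPM in 1 library is tested only through its level in the other, and its call then follows from the rule. The split of calls depends on scaling. With TMM factors the median ratio became 0.22 and the calls 779 higher and 302 lower, so that of the 586 lower genes 302 stayed past 2-fold, and all 312 higher genes did. In the matched band 203 of the 312 higher genes (65.1%) and 415 of the 586 lower genes (70.8%) were called the same way. All 312 kept a positive ratio there and 584 of the 586 a negative one.

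The largest rises took in a receptor, a lectin and secreted proteins. HTR2B, which encodes a serotonin receptor (chromosome 2, 231108230 to 231125042, GRCh38), was at 1.57 CPM in D23 (0.947 to 2.46) and 65.9 in D32 (63.0 to 69.0), a log2 ratio of 4.70, and at 124 CPM in D44. A UMI of HTR2B was found in 0.745% of D23 cells and 23.4% of D32 cells, and in 2.47% of the equally thinned D32 cells below the threshold. LGALS3, the gene of the sugar-binding protein galectin-3 (chromosome 14, 55124110 to 55145423), was at 305 CPM (295 to 315) and 3099 CPM (3079 to 3120), 10.2-fold higher. LGALS3 had a UMI in 51.9% of D23 cells and in 98.2% of D32 cells, against 45.7% and 61.0% below the threshold. IGFBP7, which encodes a secreted binding protein of insulin-like growth factors, went from 39.4 to 309 CPM (log2 ratio 2.94) and was at 158 CPM in D44. The log2 ratio of IGFBP7 was 1.81 in the matched band and 3.65 with 10% free RNA taken off.

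QPCT, whose enzyme forms pyroglutamate at protein ends, was at 11.4 and 118 CPM. The iron-dependent nuclear protein gene PIR was at 97.8 and 477 CPM, the annexin gene ANXA1 at 34.7 and 157 CPM, and BAMBI, a decoy receptor of the TGF-beta family, at 40.6 and 163 CPM. ID3, an inhibitor of basic helix-loop-helix factors, was at 10.8 and 53.2 CPM, and the transcriptional coregulator gene CITED1 at 100 and 374 CPM. The log2 ratio of ID3, 2.20, ranged over the alternatives from 1.37 with a marker threshold of 5 to 3.40 with 10% free RNA taken off. In the matched band PIR and PLXNC1 had 1.58 and 1.16 beside 2.27 and 1.86 over all cells. The matricellular protein gene CCN3 was at 64.2 and 267 CPM, PLP2 at 18.9 and 83.2 CPM, STXBP6 at 15.9 and 68.0 CPM, the semaphorin receptor gene PLXNC1 at 22.7 and 84.7 CPM, and PHGDH, the first enzyme of serine synthesis, at 30.5 and 111 CPM. Each of these and TYR was also called in the matched band, by the rule that named them. With 1 CPM added, the rises of LGALS3, IGFBP7, TYR, CITED1, PLXNC1 and PHGDH did not reach 2-fold in the cells below the marker threshold. Their log2 ratios there were 0.77, -0.21, 0.87, -0.36, -1.95 and 0.26. The other 9 rises reached it, HTR2B with 2.89, QPCT with 2.29, STXBP6 with 1.74, ANXA1 with 1.61, BAMBI with 1.52, ID3 with 1.40, PIR with 1.21, PLP2 with 1.20 and CCN3 with 1.12. TYR was at 1.16 and 2.96 CPM there, near the level of 3 UMIs (0.499 and 1.48 CPM). At such levels the added 1 CPM lowers the ratio, so a TYR rise there is not excluded. IGFBP7, ANXA1 and ID3 were higher in the cells below the threshold than in melanocyte-like cells in both libraries. IGFBP7 was at 460 and 399 CPM there, ANXA1 at 211 and 647 CPM and ID3 at 257 and 678 CPM.

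**Figure D2:**
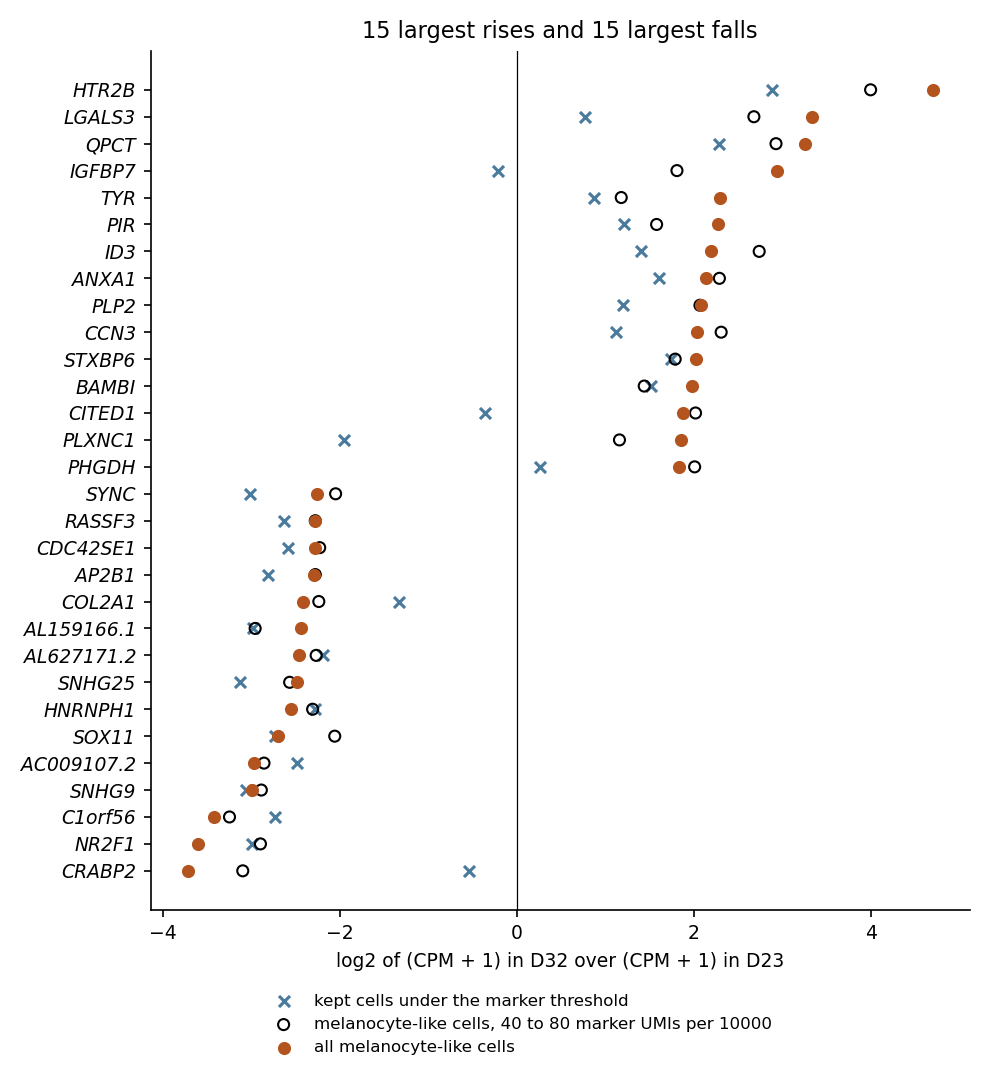
Log2 ratio of D32 over D23 (horizontal axis) for the 15 largest rises and the 15 largest falls (rows) in all melanocyte-like cells (filled circles), those with 40 to 80 marker UMIs per 10000 (open circles) and kept cells below the marker threshold (crosses). IGFBP7, CITED1 and PLXNC1 rise by 2.94, 1.88 and 1.86 with crosses below 0, whereas the falls have crosses below -1 except CRABP2 (-0.54).

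Among the largest falls were genes of retinoic acid handling and of early neural crest. CRABP2, which encodes a carrier of retinoic acid, was at 50.5 CPM in D23 (46.6 to 54.7) and 2.92 in D32 (2.32 to 3.62), 17.3-fold lower. The orphan nuclear receptor gene NR2F1 (chromosome 5, 93583222 to 93594611) went from 284 to 22.3 CPM, with a UMI in 59.4% and 9.38% of cells, against 95.9% and 34.6% below the threshold. SOX11, a factor of neural progenitors, went from 227 to 34.1 CPM, and the fibrillar collagen gene COL2A1 from 81.2 to 14.3 CPM. Below the threshold SOX11 had a log2 ratio of -2.73 beside -2.70, NR2F1 -3.00 beside -3.61, and CRABP2 -0.54 beside -3.72 (149 and 102 CPM there).

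The other large falls include the splicing factor gene HNRNPH1, at 1011 and 171 CPM, the clathrin adaptor gene AP2B1, at 321 and 64.6 CPM, CDC42SE1 at 312 and 63.2 CPM and RASSF3 at 304 and 61.8 CPM. C1orf56 went from 265 to 23.8 CPM and overlaps CDC42SE1 in position, so their UMIs may not be fully separable. The noncoding snoRNA host genes SNHG9 and SNHG25 were at 120 and 14.1 CPM and at 125 and 21.5 CPM. AC009107.2 (51.9 and 5.77 CPM), AL627171.2 (110 and 19.3 CPM), AL159166.1 (136 and 24.3 CPM) and SYNC (62.9 and 12.4 CPM) complete the 15. The cells below the threshold were past 2-fold lower too in HNRNPH1 (-2.28), AP2B1 (-2.82), CDC42SE1 (-2.59), RASSF3 (-2.63), C1orf56 (-2.73), SNHG9 (-3.06), SNHG25 (-3.13), AC009107.2 (-2.49), AL627171.2 (-2.19), AL159166.1 (-2.98) and SYNC (-3.02). AL159166.1 was at 10.8 and 0.494 CPM there, in D32 under the level of 3 UMIs (1.48 CPM). Over all calls, 384 of the 586 lower genes (65.5%) and 142 of the 312 higher genes (45.5%) were past 2-fold the same way in the cells below the threshold. The median log2 ratio there was -1.21 over the lower and 0.91 over the higher genes.

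The ratio also went with the length of the transcript. Canonical transcripts of 1000 to 2000 bases had a median log2 ratio of 0.45 over 1713 genes, those under 600 bases -0.49 over 158 genes, and those of 8000 bases or more -0.41 over 817 genes. In the cells below the threshold the same classes had medians of 0.51, -0.55 and -0.46. From D32 to D44, within 1 batch, the medians of all 6 classes lay between -0.05 and 0.01. Of the tested genes under 600 bases 24.1% were lower, against 2.74% of those of 1000 to 2000 bases. With ratios centred within length classes, an alternative chosen after seeing the data, 246 genes were higher and 483 lower, and 170 of the 312 and 375 of the 586 remained. All 15 named rises and all 15 named falls stayed past 2-fold, as they had to. They were named for large ratios, of at least 1.83 or at most -2.26, and the class medians taken off lay between -0.49 and 0.45. Base composition moved with the ratio too, with medians from -0.25 in the 2191 genes lowest in GC content to 0.20 in the 2191 highest (-0.17 and 0.23 below the threshold). The part of length, GC content and batch in any single ratio was not tested.

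**Figure D3:**
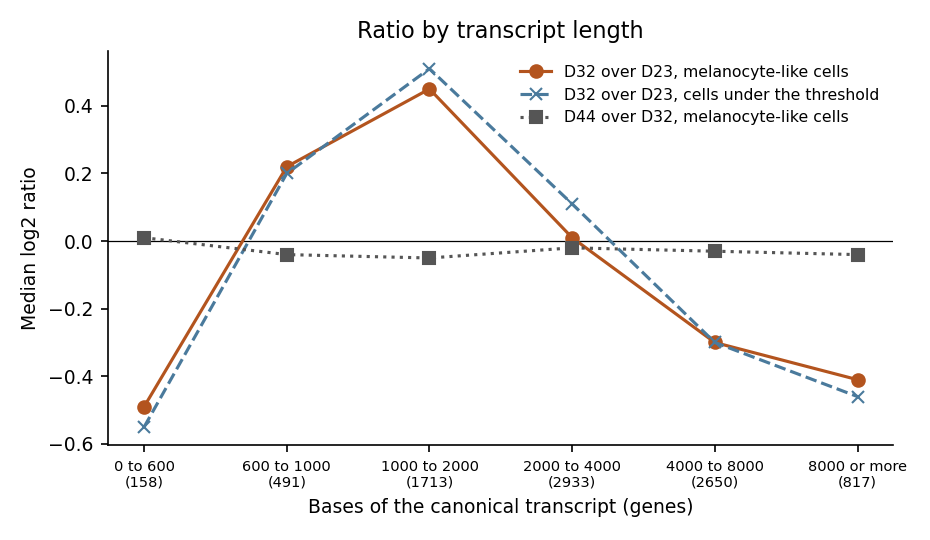
Median log2 ratio (vertical axis) of tested genes in 6 classes of canonical transcript length (horizontal axis, number of genes in parentheses), for D32 over D23 in melanocyte-like cells and in kept cells below the marker threshold, and for D44 over D32 in melanocyte-like cells. Both D32 over D23 lines climb from -0.49 and -0.55 to a peak at 1000 to 2000 bases (0.45 and 0.51) and fall again, while the D44 over D32 line stays between -0.05 and 0.01.

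Pigment synthesis genes outside the rule were higher in D32 for 4 of 13 tested, with no member lower and a median log2 ratio of 0.66 beside -0.06 over all genes (4 of 13 against the 3.56% of all genes called higher). TYR, the gene of the rate-limiting enzyme (chromosome 11, 89177875 to 89295759), was at 49.4 CPM in D23 (45.5 to 53.5), 248 in D32 (242 to 254) and 346 in D44. A TYR UMI was present in 17.2% and 58.7% of thinned cells, and in 0.499% and 1.48% of cells below the threshold. OCA2, whose product sets melanosome pH (chromosome 15, 27754875 to 28099315), was at 0.828 CPM (0.397 to 1.52) and 18.4 CPM (16.8 to 20.0), in 0.373% and 7.64% of cells, and reached 59.7 CPM in D44. OCA2 was tested through its D32 level alone. SLC24A5, the melanosome cation exchanger gene, was at 61.1 and 182 CPM, and MFSD12, which is needed for cysteine import into melanosomes, at 848 and 1858 CPM. In the matched band 3 of the 13 were called, and SLC24A5 (77.8 and 156 CPM) was just short of 2-fold with 1 CPM added. The other genes of the list stayed within 2-fold over all cells. GPNMB, a melanosome glycoprotein gene, went the other way, with 1185 and 806 CPM, and the copper pump gene ATP7A with 81.1 and 44.3 CPM. QDPR (107 and 213 CPM), GPR143 (331 and 614 CPM) and the cation channel gene TRPM1 (255 and 351 CPM) lay between.

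The promoters of TYR, TYRP1 and OCA2 are shown because they hold the motif that MITF is known to bind. TYR and OCA2 had the highest ratios among pigment synthesis genes outside the rule, and TYRP1 is 1 of the 4 genes that chose the cells. Each runs from 250 bases before to 50 after the RefSeq start site, 5′ to 3′ (GRCh38.p14), with matches to CATGTG or its reverse complement CACATG in capitals. TYR lies at chr11:89177625-89177924 on the plus strand, TYRP1 at chr9:12693135-12693434 on the plus strand and OCA2 at chr15:28099266-28099565 on the minus strand.
TYR: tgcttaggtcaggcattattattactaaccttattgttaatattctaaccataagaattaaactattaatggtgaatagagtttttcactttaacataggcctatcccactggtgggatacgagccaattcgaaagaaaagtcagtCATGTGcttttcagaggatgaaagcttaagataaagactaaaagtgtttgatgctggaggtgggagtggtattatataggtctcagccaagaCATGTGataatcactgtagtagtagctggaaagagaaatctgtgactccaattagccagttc
TYRP1: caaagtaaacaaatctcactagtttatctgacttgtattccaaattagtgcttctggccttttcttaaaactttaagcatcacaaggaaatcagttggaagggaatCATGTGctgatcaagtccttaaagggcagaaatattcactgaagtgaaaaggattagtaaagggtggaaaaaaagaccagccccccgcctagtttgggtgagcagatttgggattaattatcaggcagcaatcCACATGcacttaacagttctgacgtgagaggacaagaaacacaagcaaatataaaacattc
OCA2: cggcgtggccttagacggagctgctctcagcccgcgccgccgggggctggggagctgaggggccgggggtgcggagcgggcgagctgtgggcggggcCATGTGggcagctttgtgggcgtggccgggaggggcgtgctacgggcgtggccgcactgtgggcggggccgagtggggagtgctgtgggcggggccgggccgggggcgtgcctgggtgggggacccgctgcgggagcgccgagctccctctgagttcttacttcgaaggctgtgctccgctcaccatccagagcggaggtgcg

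Of the 11 tested pigment synthesis genes outside the rule with a promoter in the table, 6 (54.5%) held CATGTG on either strand, against 432 of 7118 tested genes (6.07%). Genes called higher held it in 17 of 254 promoters (6.69%) and genes called lower in 34 of 437 (7.78%). The related letters CACGTG, the same on both strands, were in 38 of the 254 promoters of higher genes, 40 of the 437 of lower genes and 792 of the 7118 of all tested genes. SLC24A5, GPR143, TRPM1 and GPNMB also held CATGTG on a strand, and of these GPR143 (log2 ratio 0.89), TRPM1 (0.46) and GPNMB (-0.56) were not called. No match was found in the same window of MLANA, DCT, MFSD12, LGALS3 or CITED1. These are counts of letters and not of bound sites.

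At matched marker sums the pigment genes separated. TYR was at 37.8, 84.8 and 148 CPM in D23 cells with 20 to 40, 40 to 80 and 80 to 160 marker UMIs per 10000, and at 95.7, 193 and 285 CPM in D32. The log2 ratio was thus 1.32, 1.18 and 0.94 in the 3 bands, below the 2.30 over all cells. OCA2 had log2 ratios of 0.62, 2.32 and 2.52, from D23 levels of 3.36 CPM at most. TYRP1 had 1.07, 0.82 and 0.59. DCT went the other way, at 1654 CPM in D23 and 768 in D32 within the matched band, with log2 ratios of -0.87, -1.11 and -1.38. Since the bands were cut on a sum that holds DCT and TYRP1, these are descriptions of its make-up. TSPAN10, a tetraspanin gene of pigment cells, was at 13.9 and 44.9 CPM over all cells (log2 ratio 1.62), with log2 ratios of -1.15, 0.04 and 0.53 in the 3 bands. The receptor gene MET and the melanophilin gene MLPH likewise had 2.05 and 1.14 over all cells, and 0.20 and 0.35 in the band. LGALS3, by contrast, had 2.82, 2.68 and 2.82 in the 3 bands, CITED1 1.57, 2.02 and 2.44, and HTR2B 4.10, 4.00 and 4.80.

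**Figure D4:**
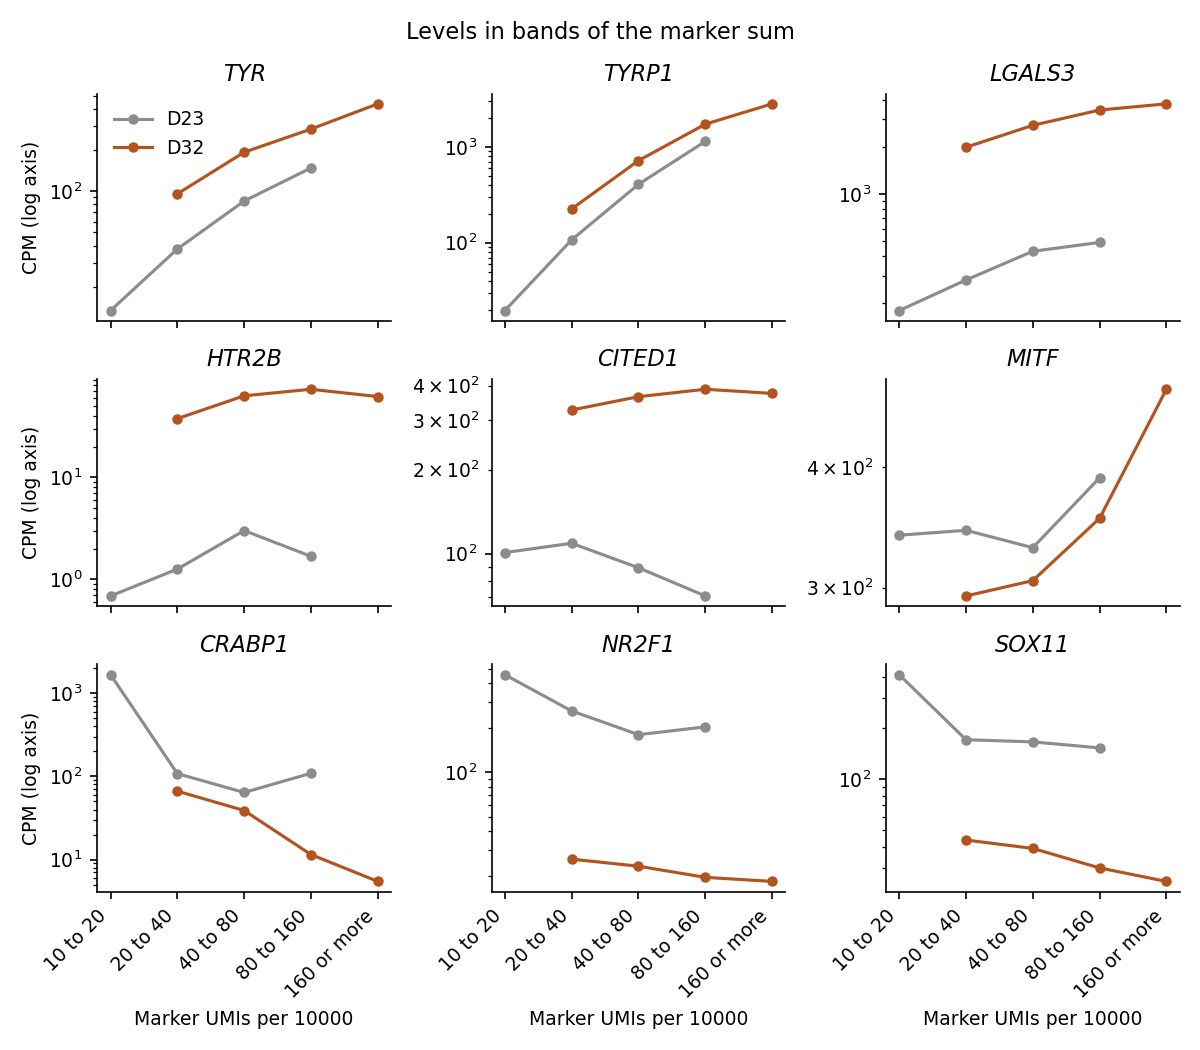
Level in CPM (vertical axis, log scale, different in each panel) of 9 genes in melanocyte-like cells of D23 and D32 split by marker UMIs per 10000 (horizontal axis), for bands with at least 50 cells. LGALS3, HTR2B and CITED1 differ between libraries in each shared band, MITF stays between 294 and 482 CPM, and CRABP1 drops from 1668 to 108 CPM between the lowest bands of D23.

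Genes of melanosome biogenesis were higher for 2 of 29 (3.56% of all genes), RAB32 (398 and 974 CPM) and RAB38 (271 and 725 CPM), a pair of small GTPases that bring enzymes to the maturing melanosome. RAB38 did not reach 2-fold in the 3 bands, with log2 ratios of 0.69, 0.95 and 0.99, and RAB32 had 0.94, 1.02 and 0.95. AP1G1, an adaptor subunit, was the 1 lower gene (66.6 and 32.3 CPM). The list's highest gene, the tetraspanin CD63, was at 2096 and 3997 CPM and stayed just under 2-fold, with a log2 ratio of 0.93. CD63 had 0.94 below the threshold, and RAB32 and RAB38 had -0.03 and 0.08. Of 9 transport genes, MLPH was higher (34.1 and 76.4 CPM). RAB27A was at 68.2 and 135 CPM and MYO5A, the motor gene, at 68.0 and 81.7 CPM. Lysosome and proton pump genes had 4 of 36 higher, against 3.56% of all genes, and none lower, with a median of 0.45. The matched band had 3 higher and a median of 0.27. The 4 were CTSZ, a cathepsin (49.8 and 156 CPM), GLA, alpha-galactosidase (63.0 and 171 CPM), NEU1, a sialidase (54.1 and 132 CPM), and MCOLN1, a lysosomal cation channel (23.4 and 53.1 CPM, with 0.81 in the matched band).

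Of 21 tested regulators of melanocytes none was called higher and 3 were called lower, against 3.56% and 6.68% of all genes. Their median log2 ratio was -0.43, or -0.17 with TMM scaling. In the matched band 1 was higher, the Notch target HEY1 (log2 ratio 1.10 there and 0.35 over all cells), and 2 were lower. MITF was at 341 CPM in D23 (331 to 352), 340 in D32 (334 to 347) and 339 in D44, a ratio within counting error, although in D32 it climbed from 294 CPM in the 20 to 40 band to 482 CPM at 160 or more. The lower genes were ETV1, an ETS factor downstream of KIT signalling (129 and 33.0 CPM), the Notch target HES1 (53.6 and 17.0 CPM) and PAX3, the factor of melanocyte precursors (129 and 58.4 CPM). PAX3 had a log2 ratio of -1.13 over all cells, -0.95 in the matched band and -1.15 when centred within length classes, and with TMM scaling 2 of the 3 stayed past 2-fold. SOX10 was at 121 and 91.3 CPM, TFAP2A at 289 and 226 CPM, ZEB2 at 310 and 173 CPM, and FOXD3 at 26.7 and 35.1 CPM. SOX5 and SOX6 were at 86.6 and 46.0 CPM and at 85.9 and 56.0 CPM. The median of the list below the threshold was -0.90, where all its genes summed to 839 and 427 CPM.

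Receptors and ligands of melanocyte growth had 2 of 11 higher and 2 lower, against 3.56% and 6.68% of all genes. KIT, the receptor of the SCF in the medium (chromosome 4, 54657267 to 54740783), was lower, at 101 CPM (95.5 to 107) in D23, 41.1 (38.8 to 43.6) in D32 and 37.1 in D44. Its log2 ratio was -1.25, -1.53 and -1.22 in the 3 bands and -1.82 below the threshold. IGF1R, the insulin-like growth factor receptor gene, was at 63.0 and 28.1 CPM. EDNRB, the receptor of the endothelin-3 in the medium, was higher, at 78.4 CPM (73.5 to 83.6) and 159 CPM (154 to 164), and so was MET, the receptor of hepatocyte growth factor (5.30 and 25.1 CPM). Neither was called in the matched band, where no member of the list was higher. EDNRB had log2 ratios of 0.89, 0.69 and 0.69 in the 3 bands. ERBB3 was at 103 and 69.6 CPM.

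**Figure D5:**
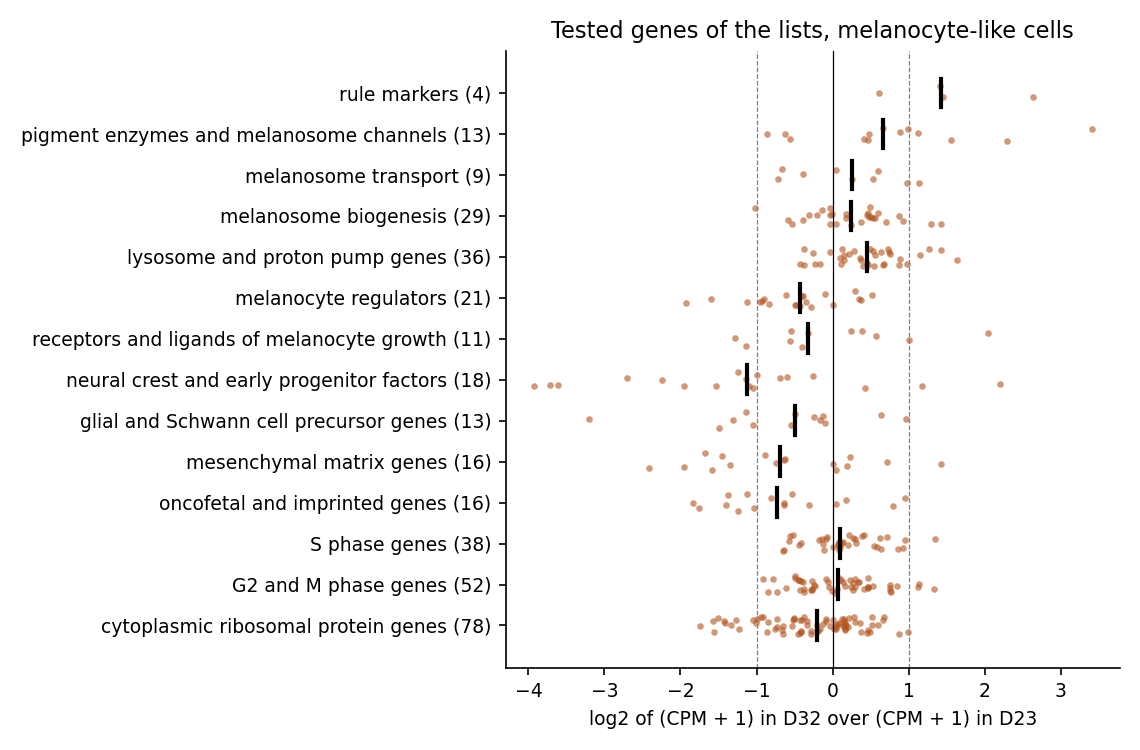
Log2 ratio of D32 over D23 in melanocyte-like cells (horizontal axis) of the tested genes (points) of 14 gene lists (rows, number tested in parentheses), with the median of each list as a black bar and 2-fold as dashed lines. The median is 1.43 for the 4 genes of the rule, 0.66 for pigment enzymes and channels and -1.12 for neural crest factors.

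Neural crest and early progenitor factors were lower for 12 of 18 and higher for 2, with a median log2 ratio of -1.12 and a summed level of 2624 CPM in D23, 895 in D32 and 718 in D44 (lower genes make up 6.68% of all tested). Besides CRABP1, CRABP2, NR2F1 and SOX11, the lower genes were TFAP2C (log2 ratio -2.24), TWIST1 (14.0 and 2.88 CPM), ID4 (72.0 and 24.3 CPM), ETS1 (298 and 125 CPM), SOX4 (790 and 357 CPM), MSX1 (16.1 and 6.98 CPM), RARB (22.4 and 10.4 CPM) and SOX9 (13.9 and 6.44 CPM). ID1 and ID3, inhibitors that respond to BMP, were higher, ID1 at 3.89 and 10.1 CPM, beside 130 and 660 CPM below the threshold. ID1 was tested through its D32 level alone. With TMM scaling 7 of the 12 stayed past 2-fold, and in the matched band 5 of the list were called lower, with a median of -0.46. ID4 (-0.47), SOX4 (-0.83), MSX1 (-0.45), RARB (-0.38) and SOX9 (-0.36) were among those not called there. TWIST1 (-1.26) was under 10 CPM in the matched band and so was not tested. SNAI2, which acts in the departure of crest cells, was at 198 and 123 CPM and SOX2 at 10.6 and 14.7 CPM.

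The fall of CRABP1, another carrier of retinoic acid, depended on which D23 cells were taken. It had the largest negative ratio of the list, -3.93, from 473 CPM in D23 (461 to 486) to 30.1 in D32 (28.1 to 32.2), and was at 0.139 CPM in D44. In D23 it was at 1668 CPM in cells with 10 to 20 marker UMIs per 10000, 108 CPM at 20 to 40 and 64.1 CPM at 40 to 80. The log2 ratio was -0.69 at 20 to 40 and -0.71 in the matched band, and -3.14 at 80 to 160, where D23 had 119 cells. In the cells below the threshold CRABP1 was at 5836 and 2123 CPM. NR2F1 and SOX11 also were highest in the 10 to 20 band of D23, at 457 and 414 CPM, but had log2 ratios of -3.28, -2.90 and -3.31 and of -1.94, -2.06 and -2.32 in the 3 shared bands. TFAP2C, a factor of early ectoderm and neural crest, was higher in the melanocyte-like cells of D23 than in the cells below the threshold (55.5 against 12.0 CPM, or 464%), and at 82.5% of their level in D32.

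Levels in the cells below the threshold are given because RNA set free by other cells can add UMIs in droplet data. NEFM, a neurofilament gene, and COL1A1, a fibroblast collagen gene, reached 1.46% and 1.85% of their level below the threshold in D23 melanocyte-like cells, at 22.7 and 27.8 CPM. NR2F1, SOX11 and COL1A2 reached 18.7%, 28.1% and 20.6%, and CRABP1 8.11%. The percentages thus differed between genes, and the part of free RNA was not tested gene by gene. Taking off 10% of each library's mean profile left 309 genes higher and 561 lower.

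Glial and Schwann cell precursor genes were lower for 5 of 13, against 6.68% of all genes, and higher for none, with a median of -0.50. With TMM scaling 3 were lower and 1 higher. The matched band had 1 called lower, and NCAM1 (-0.69), L1CAM (-0.97) and ITGA4 (-0.69) were under 2-fold. GAP43, a growth cone gene, was at 17.1 and 0.961 CPM, and the adhesion genes CADM1, NCAM1, L1CAM and ITGA4 were at 101 and 35.3, 12.9 and 4.63, 76.9 and 34.4, and 51.7 and 24.6 CPM. The calcium-binding protein gene S100B was at 505 and 426 CPM. Of 16 mesenchymal matrix genes 6 were lower and 1 higher, against 6.68% and 3.56% of all genes. The lower genes include COL1A2 (345 and 135 CPM), COL1A1 (27.8 and 8.58 CPM, with a log2 ratio of -0.57 in the matched band) and BGN (17.7 and 2.49 CPM). LUM was higher (3.64 and 11.5 CPM), beside 100 and 490 CPM below the threshold, and was tested through its D32 level alone. In the matched band LUM was under 10 CPM and so was not tested (log2 ratio 1.74). The list summed to 1402 and 1149 CPM, against 7437 and 7772 CPM below the threshold. Of 4 keratinocyte and simple epithelial genes 2 were higher, against 3.56% of all genes. Keratin 18 (KRT18) was at 15.2 and 43.4 CPM, beside 144 and 1719 CPM below the threshold, and the part of free RNA or doublets in this rise was not tested. ESRP1 was at 5.30 and 25.9 CPM, beside 0 CPM below the threshold in both libraries. Of 6 neuronal genes 2 were lower, GAP43 and NEFM, against 6.68% of all genes, with a median of -0.66. In the matched band the median was 0.12, with TUBB3 (1.09) and NEFL (1.19) higher. GAP43 (log2 ratio -1.16) and NEFM (0.31) were under 10 CPM there and so were not tested.

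Oncofetal and imprinted genes had 7 of 16 lower, against 6.68% of all genes, none higher and a median of -0.73. Of these genes HMGA2 (-0.84) and IGF2BP1 (-0.92) were not called in the matched band, where 5 of the list were lower. PEG10 was at 122 and 33.3 CPM, the chromatin protein gene HMGA2 at 121 and 45.1 CPM, the RNA-binding IGF2BP1 at 138 and 63.0 CPM, LIN28B, which blocks let-7 maturation, at 46.8 and 22.3 CPM, and MEST at 14.1 and 5.34 CPM. The imprinted noncoding RNAs KCNQ1OT1 (91.7 and 26.3 CPM) and SNHG14 (146 and 55.6 CPM) were lower too. KCNQ1OT1 and HMGA2 had log2 ratios of -0.05 and 0.03 below the threshold, and PEG10 had -2.83. With TMM scaling 5 of the 7 stayed past 2-fold.

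Few cell cycle genes were called over all cells, where 3.56% of all genes were higher. Of 38 S phase genes FEN1 was higher (22.8 and 59.8 CPM), and of 52 G2 and M phase genes CCNB2 (32.0 and 82.2 CPM), CDC20 (24.7 and 55.6 CPM) and CDCA3 (log2 ratio 1.13) were, with medians of 0.10 and 0.07. In the matched band 15 of the 52 were higher, against 350 of the 8798 genes tested there, and the median was 0.72. UBE2C, which drives exit from mitosis, was at 173, 122, 73.5 and 42.0 CPM over the 4 bands of D23 from the lowest, and at 256, 190, 134 and 74.1 CPM over the 4 bands of D32 from 20 to 40 upwards. CCND2, a D-type cyclin gene, was lower, at 40.0 and 3.13 CPM (log2 ratio -3.31), with 282 and 230 CPM below the threshold. CCND1, the main D-type cyclin of these cells, was at 583 and 458 CPM.

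Several lists differed within themselves. Of 78 ribosomal protein genes 11 were lower, against 6.68% of all genes, and none higher. Their median of -0.20 turns to 0.07 with TMM scaling. The lower genes include RPS27 (5318 and 1786 CPM), RPL39 (7666 and 2683 CPM), RPS29 (2604 and 879 CPM) and RPL38 (1579 and 473 CPM), while RPL10 was at 3856 and 5259 CPM. Genes of the list under 600 bases had a median of -0.65 over 23 genes, and the 55 longer ones 0.05. The cells below the threshold had -0.81 and -0.07. Of 13 mitochondrially encoded genes 3 were lower, against 6.68% of all genes. They were the short MT-ND4L (995 and 260 CPM), MT-ATP8 (247 and 77.1 CPM) and MT-ND3 (5945 and 2356 CPM), with log2 ratios of -2.11, -1.93 and -1.45 below the threshold. MT-CO1 (6951 and 11349 CPM) and MT-CO2 (10946 and 16715 CPM) went the other way. Nuclear oxidative phosphorylation genes had 5 of 75 lower, such as ATP5ME (1218 and 339 CPM) and NDUFA3 (404 and 110 CPM), and 2 higher, among them SDHC (95.3 and 201 CPM, with 0.81 in the matched band). The shares of the nuclear oxidative phosphorylation genes are near or under the 6.68% and 3.56% of all genes. Their median of -0.02 turns to 0.24 with TMM scaling.

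Further calls came in small numbers per list. Antigen presentation and interferon genes had 3 of 13 higher, against 3.56% of all genes, the immunoproteasome subunit PSMB8 (1.90 and 21.5 CPM), the peptide transporter TAP1 (1.41 and 12.9 CPM) and HLA-G (2.81 and 16.8 CPM). These 3 were tested through their D32 levels alone, so their calls followed from the rule and the count is not a result about the list. The light chain gene B2M was at 485 and 847 CPM. Of 29 cholesterol and fatty acid synthesis genes 4 were higher, against the same share, ACAT2 (94.8 and 295 CPM), DHCR7, MVD and FDPS, and 1 lower, their regulator SREBF1 (65.0 and 29.7 CPM, with -0.88 in the matched band). ACAT2 had a log2 ratio of 1.63, and 1.85 below the threshold. Of the antioxidant genes NQO1 (793 and 1591 CPM) and HMOX1 (17.5 and 41.1 CPM) were higher, and of the iron and metal genes FTH1, the ferritin heavy chain gene, rose from 5811 to 11860 CPM (log2 ratio 1.03, and 0.89 in the matched band) and MT2A, a metallothionein gene, was lower (log2 ratio -1.63). PTGDS, the gene of a prostaglandin synthase, was lower, at 264 and 118 CPM, and at 8.44 CPM in D44. Its log2 ratio was -1.15 over all cells and -2.38 in the matched band, and it was higher in cells with more marker UMIs (125 to 561 CPM over the bands of D23). HOXC9 and HOXB7 were higher, at 3.64 and 12.6 CPM and at 3.97 and 10.3 CPM, of 3 tested HOX genes, against 3.56% of all genes. Both were likewise tested through their D32 levels alone, so these calls followed from the rule.

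Lists taken from the study's supplement were counted in the same way. Its stage programmes came from other data on human skin melanocytes, and how far their genes were picked with these libraries in view is not given in the sources used here. The adult programme had 7 of 30 tested genes higher and 2 lower (median 0.59), the neonatal 3 of 29 higher and 2 lower (0.42), and the fetal 2 of 39 higher and 7 lower (-0.23, or 0.03 with TMM scaling), against 3.56% and 6.68% of all genes. The adult and neonatal medians were 0.23 and 0.21 in the matched band. TYR, OCA2 and LGALS3 stand in both the adult and the neonatal list, as does CRABP1 on the lower side, so the lists share genes. A list of genes from a published pigmentation screen had 8 of 140 higher and 4 lower, with a median of -0.08 that turns to 0.16 with TMM scaling. That share of 8 in 140 lies near that of all genes.

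Of the 8769 genes, 25 were at least 2-fold higher and 87 at least 2-fold lower in melanocyte-like cells of D44 than of D32, which share a batch. Of the 312 higher genes 299 and of the 586 lower genes 550 stayed within 2-fold of their D32 level. Among those named, HTR2B went on from 65.9 to 124 CPM, OCA2 from 18.4 to 59.7 CPM and the transporter gene ABCB5 from 3.81 in D23 over 30.5 to 86.2 CPM, while IGFBP7 went back from 309 to 158 CPM. The comparisons share the D32 library.

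Chromosome medians were close to each other, from -0.34 on chromosome 13 and -0.27 on chromosome 18 to 0.07, and the cells below the threshold had -0.20 and -0.15 on these chromosomes.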

How the data were processed

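The authors deposited a matrix of whole-number UMI counts for each library (described in the labels as 10x Genomics and as prepared by a DNBSEQ protocol), with Cell Ranger 6.1.2 and hg38 named in the submitters' processing notes, and not normalized or filtered beyond Cell Ranger's calling of barcodes. The annotation release is not given in the sources used here. Gene positions and canonical transcripts came from GENCODE 44 (GRCh38), matched by identifier, and promoters from RefSeq.

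Cells were kept as in the study's methods: over 1000 and under 7000 genes and under 50000 UMIs in D23, over 3000 and under 9000 genes and under 100000 UMIs in D32 and D44, and under 10% mitochondrial UMIs. Melanocyte-like cells were chosen on the counts as deposited, then thinned to 5000 UMIs. Called doublets (the top expected share of Scrublet scores, 141 D23 and 426 D32 melanocyte-like cells) were kept. The thinned sums held 12080000 UMIs in D23 and 28090000 in D32, and a gene without a UMI may reach 0.248 and 0.107 CPM (3 UMIs). In the cells below the threshold, with smaller sums, that limit is 0.499 and 1.48 CPM. A gene was tested at 10 CPM in either library and called at 2-fold. Named genes were the 4 of the rule, the highest, called and least moved genes of lists, and the 15 largest rises and falls with at least 50 CPM called the same way in the matched band. ABCB5 lies outside these and was chosen after their values were seen. Members and lists were chosen with earlier results of these data known. Y-linked genes and XIST were left out. TMM factors came from edgeR 4.0.16 (1.096 for D23 and 0.913 for D32). The calling was tested on simulated data. Alternatives covered depth, thresholds, filters, doublets, free RNA, cell cycle and scaling.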

Additional observations from a re-analysis of the deposited data

Results flagged for a closer look

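These 6 genes moved past 2-fold in melanocyte-like cells and past 2-fold the other way in the cells below the marker threshold, a difference that was not tested. PLXNC1 had a log2 ratio of 1.86 in melanocyte-like cells (22.7 to 84.7 CPM) and -1.95 below the threshold (10.5 to 1.98 CPM). Its D32 level below the threshold is close to that of 3 UMIs there, 1.48 CPM. TNNT1, a troponin gene, had 1.17 (29.2 to 66.9 CPM) and -2.04 (68.3 to 15.8 CPM). The matrix genes EMILIN1, GPC3 and PCOLCE went down in melanocyte-like cells, by log2 ratios of -1.06, -2.22 and -1.14, and up below the threshold, by 1.15, 1.17 and 2.05. The potassium channel gene KCNMA1 had -2.61 (13.3 to 1.35 CPM) and 1.59 (22.1 to 68.6 CPM). Cells below the threshold are a mixture whose make-up can differ between the libraries, and its part was not tested.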

How the results depend on the processing

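The calls of 312 higher and 586 lower genes stayed within 1.5 times under deeper or no thinning, other marker thresholds, members chosen on thinned counts, 1 cell filter for both libraries, removal of doublets or free RNA, the less cycling cells, the matched band, another seed, centring, totals without mitochondrial and ribosomal genes, and both alternatives on transcript length, which were added after seeing the data. Another seed gave 307 and 588 calls, of which 262 and 514 were shared. TMM scaling gave 779 and 302 calls and turned the majority from lower to higher, since the factors move every ratio alike. With no minimum CPM 1177 genes were lower, with at least 50 CPM 154 and 250 genes were called, with 5 CPM added 198 and 369, and at 1.5-fold 1271 and 1668, as follows from testing more or fewer genes or from the threshold. For the 15 largest rises, the 15 largest falls, the rule genes and the pigment synthesis genes 648 ratios kept close to the reported value and 134 moved further, and of list medians 627 and 2, the latter those of the 4 rule genes (0.42) and of G2 and M phase genes (0.72) in the matched band. No called ratio of these genes and no called list median reversed. Other genes were not recomputed under every alternative. With 1 library a day, variation between inductions cannot be measured. No paired analysis was possible because each group has 1 library and no test was made.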

Other observations

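Some genes that no list held also differed in melanocyte-like cells while staying level below the threshold. Chosen after their values were seen, as called over all cells and in the matched band at 50 CPM or more, they include SLC16A6, a transporter of the monocarboxylate family (20.2 and 57.7 CPM, and 169 in D44, with a log2 ratio of -0.08 below the threshold), WIPI1, an autophagy gene linked to melanosome formation (30.0 and 67.2 CPM, -0.40), CPVL, a carboxypeptidase gene (38.3 and 89.7 CPM, -0.07), and DST, which encodes a cytoskeletal linker (58.4 and 128 CPM, -0.06). On the lower side were APCDD1, an inhibitor of WNT signalling (91.2 and 24.8 CPM, -0.39), BCAT1, of branched-chain amino acid breakdown (177 and 53.4 CPM, -0.46), and NREP (59.9 and 23.6 CPM, -0.10).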
